A study of Mus musculus with 16 samples.

Results

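The ventricular myosin chains are 6 genes chosen by name from the deposited table: the alpha heavy chain Myh6, the beta heavy chain Myh7, the ancient heavy chain Myh7b, the regulatory light chain Myl2, the essential light chain Myl3 and the cardiac light chain kinase Mylk3. All 6 of 6 were found among the 55492 genes of the table, and all 6 passed the filter on low values that left 20576 genes for testing. RNA came from left ventricles of male C57BL/6 mice of 8 to 12 weeks, in 16 libraries from 6 groups. The PKM2fl/fl groups carried loxP-flanked exon 10 of Pkm and the PKM2-/- groups had lost it in every tissue, after germline recombination by a CMV-driven Cre that was then bred out. Each genotype had 2 baseline libraries without surgery, 3 libraries from 3 days after sham surgery, in which the left anterior descending artery (LAD) was not tied, and 3 from 3 days after myocardial infarction (MI) by permanent LAD ligation. The part of the ventricle taken after MI is not given in the sources used here. The study describes its RNA-seq replicates as mice, so p-values measure the spread between the mice of a group.

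Cardiac myosin is a hexamer of 2 heavy chains, which hold the ATPase motor, and 2 pairs of light chains, which stiffen the lever arm. In the adult mouse ventricle the fast alpha heavy chain dominates, whereas the slower beta chain is the fetal form, and a rise of beta relative to alpha is a textbook sign of cardiac stress. Phosphorylation of the regulatory light chain by the kinase Mylk3 strengthens contraction, and Myh7b, an old relative of both main chains, is transcribed in heart and slow skeletal muscle at low level.

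Depth ranged from 20623769 to 71855101 reads per library, and rRNA-related loci took 16.2 to 47.0% of them. That share separated the genotypes at baseline (17.7 to 22.7% in PKM2fl/fl, 40.6 to 44.7% in PKM2-/- hearts) and after sham (16.2 to 28.5% and 29.6 to 47.0%). Total Pkm is no check of the deletion at the gene level, since the other splice form uses another exon in its place. Its normalized counts were 7779 to 9444 after sham in PKM2fl/fl and 11710 to 14242 in PKM2-/- hearts (adjusted p = 0.174 by limma). All 16 cardiomyocyte markers were detected in every group, and the PKM2fl/fl MI library with replicate number 3 stood apart: its summed cardiomyocyte marker count was 202452, against 431044 and 440261 in the other PKM2fl/fl MI libraries and 222571 to 307820 in the PKM2-/- MI libraries. That library also had 46.5% of its reads on rRNA-related loci, while PKM2fl/fl MI replicate 1 had 45.1% and the highest marker count of the MI libraries.

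Myh6 and Myh7 lie head to tail on the minus strand of chromosome 14, with 2666 bases between them. In GRCm38.p6 coordinates (the mm10 build of the authors' alignment) Myh6 spans chr14:54941921-54968017 and Myh7 chr14:54970684-54994626. Myh7b spans chr2:155611243-155634307, Myl2 chr5:122092724-122113473, Myl3 chr9:110763678-110769802 and Mylk3 chr8:85324928-85386340. The 3 heavy chain genes each hold a microRNA in an intron, known together as the myomiRs. Their main mature arms, from RefSeq, are shown because the microRNA genes sit inside the transcripts measured here; the seed, bases 2 to 8, is in capitals.
mmu-miR-208a-3p (in Myh6): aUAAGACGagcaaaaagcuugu
mmu-miR-208b-3p (in Myh7): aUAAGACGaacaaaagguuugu
mmu-miR-499-5p (in Myh7b): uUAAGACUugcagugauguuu
The arms from Myh6 and Myh7 share the seed UAAGACG and differ at 3 of 22 positions, counted from the 5′ end of miR-208a-3p: G10A, A16G and C18U. The arm from Myh7b has the seed UAAGACU.

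The RefSeq promoter windows of the alpha and beta heavy chain, 250 bases before to 50 after an annotated start, are shown because the ratio of these neighbours is described below. Capitals mark the M-CAT core CATTCC or its reverse GGAATG, a motif bound by TEAD factors.
Myh6 (chr14:54966558-54966857, minus strand): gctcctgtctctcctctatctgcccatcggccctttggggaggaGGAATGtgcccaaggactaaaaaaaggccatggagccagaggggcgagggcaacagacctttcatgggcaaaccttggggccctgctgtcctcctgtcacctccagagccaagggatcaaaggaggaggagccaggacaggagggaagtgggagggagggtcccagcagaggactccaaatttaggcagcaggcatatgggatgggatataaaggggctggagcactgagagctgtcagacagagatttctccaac
Myh7 (chr14:54994577-54994876, minus strand): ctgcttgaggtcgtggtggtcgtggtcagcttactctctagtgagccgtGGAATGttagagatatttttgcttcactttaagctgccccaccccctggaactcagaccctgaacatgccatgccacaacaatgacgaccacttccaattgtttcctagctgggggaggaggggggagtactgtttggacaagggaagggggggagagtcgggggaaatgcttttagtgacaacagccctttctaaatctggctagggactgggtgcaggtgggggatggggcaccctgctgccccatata
The core was found in 4 of the 9 windows of the 6 genes (1 each of Myh6, Myh7, Myl3 and Mylk3), and in 14.7% of all 32851 promoter windows of the same length. A second annotated Myh7 start, whose window lies at chr14:54994500-54994799, holds no match. These are letter matches and no binding was measured.

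The 6 genes were abundant but unequal. Per kilobase of the canonical GENCODE transcript, the mean level in PKM2fl/fl sham hearts was 118727 normalized counts for Myl2, 69200 for Myl3, 58775 for Myh6, 4721 for Myh7, 3720 for Mylk3 and 357 for Myh7b (n = 3). Myl2 ranked highest and Myh7b lowest in each of the 6 groups. The ranges of Myl3 and Myh6 overlapped in PKM2fl/fl sham hearts (63043 to 76633 and 52765 to 69003 per kilobase), as did those of Myh7 and Mylk3 (1852 to 6619 and 3354 to 4197). Myh6 and Myh7 transcripts are alike in part: 15.5% of all 75-base stretches of the Myh7 transcript also occur in Myh6, so reads that lie within those stretches could be split between them, and no such stretch is shared by any other pair of the 6.

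All 6 genes fell after MI in PKM2fl/fl hearts, and 5 of 6 fell in PKM2-/- hearts. Myh7b fell furthest in both genotypes, and Myh7 was the exception in PKM2-/- hearts. By limma on log2(value + 1) over all 16 libraries, 25.3% of all genes tested were lower with an adjusted p under 0.05 in PKM2fl/fl and 28.1% in PKM2-/- hearts. All members that passed also fell at least 2-fold, as 11.1% and 14.3% of all genes did. In bulk tissue, fewer cardiomyocytes and less RNA per cardiomyocyte cannot be told apart. The cardiomyocyte marker list fell alongside, with 15 of 16 genes lower in PKM2fl/fl (median log2 fold change -1.75) and 16 of 16 lower in PKM2-/- hearts (median -1.92), while 6 of 9 tested leukocyte markers rose in each. The median over the 6 myosin genes was -1.94 in PKM2fl/fl and -2.25 in PKM2-/- hearts, and over all genes tested -0.0025 and 0.010.

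**Figure D1:**
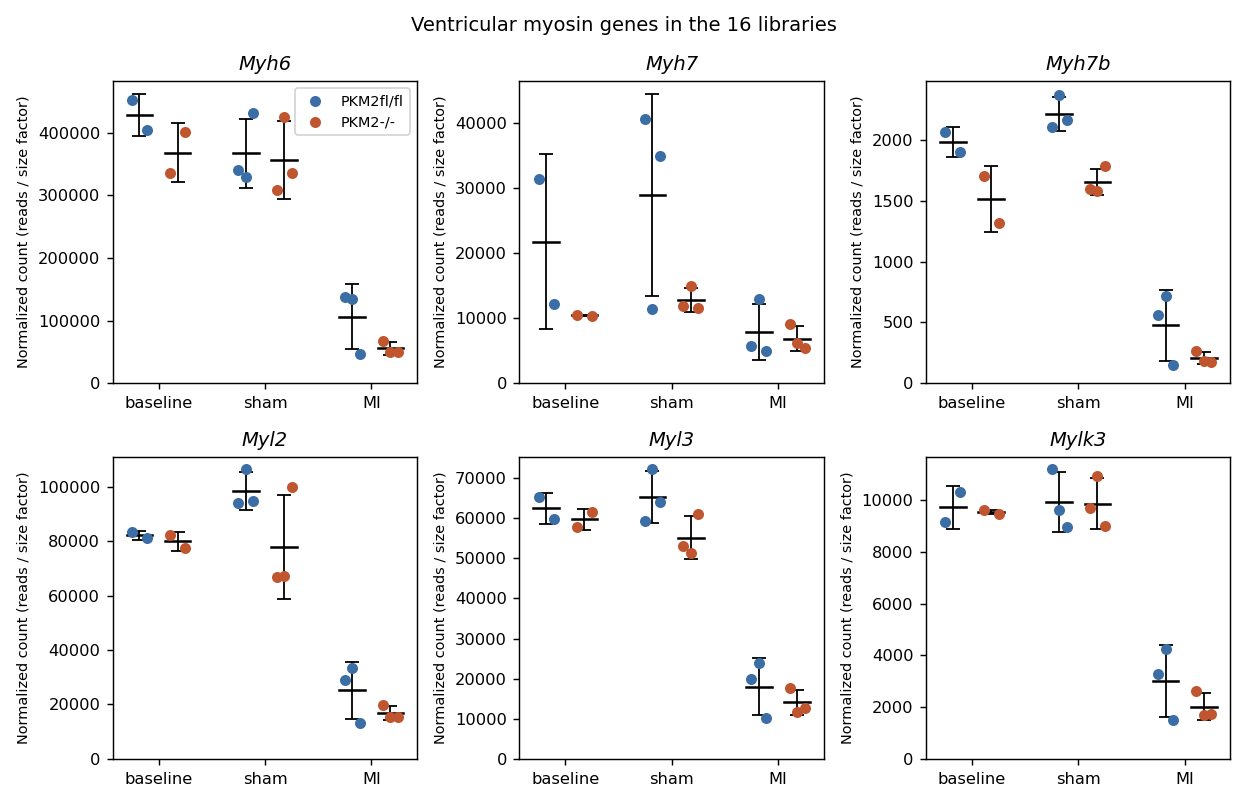
Normalized counts (reads over size factor, y axes from 0) of the 6 genes at baseline, after sham and after MI; each point is a library, and bars give the group mean ± SD (n = 2 at baseline, 3 elsewhere). Myh6 falls from 329464 or more in the PKM2fl/fl sham libraries to 137875 or less after MI, whereas Myh7 spreads from 11364 to 40607 within the PKM2fl/fl sham group.

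Myh6, the main motor of the adult mouse ventricle, had normalized counts of 340651, 329464 and 430857 in the PKM2fl/fl sham libraries and of 137875, 134794 and 46178 after MI. In PKM2-/- hearts the counts were 307764, 425724 and 335363 after sham and 66975, 50252 and 49315 after MI. Every MI library was below every sham library of its genotype. The fall was -1.94 ± 0.41 (log2 fold change ± SE, adjusted p = 0.00100) in PKM2fl/fl and -2.68 ± 0.41 (adjusted p = 4.7e-05) in PKM2-/- hearts, to 26.1% and 15.6% of the sham level. Without PKM2fl/fl MI replicate 3 the fall in PKM2fl/fl was -1.42 (adjusted p = 0.000759), and all 6 genes still fell in PKM2fl/fl hearts, where 21.6% of all genes did.

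Myh7, the slow fetal motor, was the most uneven of the 6 in the PKM2fl/fl control groups, with a coefficient of variation of 62.0% at baseline and 53.5% after sham, against at most 15.1% for the other 5 in those groups. In PKM2-/- baseline libraries it was the most even, at 0.904%. Its normalized counts were 31369 and 12239 in the PKM2fl/fl baseline libraries and 40607, 11364 and 34926 in the PKM2fl/fl sham libraries, but 10519 and 10385 at baseline and 11961, 14913 and 11591 after sham in PKM2-/- hearts. High libraries thus occurred in both PKM2fl/fl control groups and in no PKM2-/- group. The summed atrial markers were 3630 and 2270 in the same PKM2fl/fl baseline libraries and 6726, 2567 and 5568 in the sham libraries, but also 6987, 3040 and 6451 in the PKM2-/- sham libraries. Nppa, which is also on the stress list, made up most of these sums (3491 and 2150 at baseline). The atrial chain Myl7 had 11.0 and 19.9 in the PKM2fl/fl baseline libraries, the other order from Myh7. In the PKM2fl/fl sham libraries it had 401, 90.3 and 405, the same high and low libraries. The atrial marker Sln, at 0 and 6.63, had the baseline order of Myl7, but Myl4, at 127 and 93.5, had that of Myh7. In the PKM2-/- sham libraries, where Myh7 was not high, Myl7 had 378, 226 and 69.0 and Myl4 889, 479 and 261. The part of these markers in the spread of Myh7 was not tested. After MI the counts were 5777, 12894 and 4981 in PKM2fl/fl and 9061, 6123 and 5411 in PKM2-/- hearts. The PKM2fl/fl MI and sham libraries overlapped, because MI replicate 2 lay above sham replicate 2, whereas no PKM2-/- MI library reached a sham library. The limma fit nevertheless gave a fall of -1.81 ± 0.45 (adjusted p = 0.00347) in PKM2fl/fl hearts and a log2 fold change of -0.93 ± 0.45 that did not pass (adjusted p = 0.0914, 95% interval -1.89 to 0.03) in PKM2-/- hearts. The shared estimate of the spread sets that call: fitted to the 6 PKM2-/- sham and MI libraries alone, which vary less, the same log2 fold change of -0.93 passed (adjusted p = 0.00216), where 26.6% of all genes were lower.

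Myh7b fell furthest, to 17.7% of the sham level in PKM2fl/fl and 12.4% in PKM2-/- hearts. Its normalized counts were 2110, 2372 and 2159 after sham and 560, 715 and 149 after MI in PKM2fl/fl hearts, and 1598, 1583 and 1781 after sham and 267, 186 and 172 after MI in PKM2-/- hearts. Neither genotype had an overlap between sham and MI. The log2 fold changes were -2.50 ± 0.39 (adjusted p = 8.4e-05) and -3.01 ± 0.39 (adjusted p = 1.1e-05).

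Both light chains and the kinase fell in both genotypes. Myl2, whose phosphorylation tunes contraction, had counts of 94043, 106311 and 94564 after sham and of 28865, 33356 and 13324 after MI in PKM2fl/fl hearts, a log2 fold change of -2.07 ± 0.28 (adjusted p = 2.8e-05). In PKM2-/- hearts Myl2 went from 66703, 67089 and 99947 to 19895, 15241 and 15478 (-2.19 ± 0.28, adjusted p = 1.1e-05). Both sets of MI libraries lay under all their sham libraries. Myl3, the essential chain that clasps the lever arm, changed by -1.95 ± 0.26 in PKM2fl/fl and -1.99 ± 0.26 in PKM2-/- hearts, with group ranges of 59387 to 72188 and 10105 to 23875 for sham and MI in PKM2fl/fl and of 51278 to 61137 and 11804 to 17675 in PKM2-/- hearts. Mylk3, the kinase of Myl2, fell from 8942 to 11190 after sham to 1517 to 4247 after MI in PKM2fl/fl hearts (-1.83 ± 0.27, adjusted p = 5.6e-05), and from 8990 to 10919 to 1714 to 2621 in PKM2-/- hearts (-2.31 ± 0.27, adjusted p = 4.9e-06). Counting all 6 genes, the sham and MI libraries did not overlap for 5 of 6 in PKM2fl/fl and 6 of 6 in PKM2-/- hearts, where 29% and 30.6% of all genes tested were lower without overlap.

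**Figure D2:**
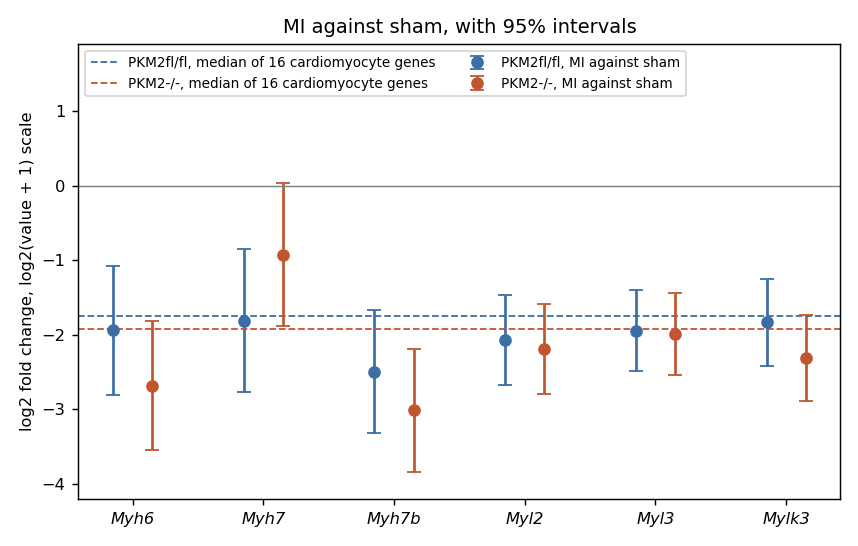
Log2 fold change of MI against sham (y axis, log2(value + 1) scale) of each gene in PKM2fl/fl and PKM2-/- hearts, with 95% intervals from limma; dashed lines give the median of the 16 cardiomyocyte marker genes in each genotype, -1.75 and -1.92. The interval of Myh7 in PKM2-/- hearts, from -1.89 to 0.03, is the only one of the 12 that reaches 0.

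The MI libraries also let the chains be compared with each other within a library, which removes the library's scaling. Relative to the geometric mean of the 16 cardiomyocyte markers, Myh7b was lower after MI by a log2 difference of -0.98 over both genotypes, and all 6 MI libraries (-5.82 to -4.72) lay below all 6 sham libraries (-4.67 to -4.24; exact stratified permutation test, two-sided, p = 0.005, the smallest possible; adjusted p = 0.133 over 80 ratio tests). The same difference was -0.53 for Myh6 (exact p = 0.01), -0.35 for Myl2 (exact p = 0.005), -0.29 for Mylk3 (exact p = 0.03) and -0.19 for Myl3 (exact p = 0.015). Myh7 was the exception at 0.41 (exact p = 0.29), with 0.97 in PKM2-/- hearts (exact p = 0.1) and -0.15 in PKM2fl/fl hearts (exact p = 0.7), where the value turned to 0.20, 0.08 and 0.19 without sham replicate 1, sham replicate 3 and MI replicate 1. The Myl3 to Myl2 ratio was higher by a log2 difference of 0.16 (exact p = 0.02) and the Myh7b to Myh6 difference was -0.45 (exact p = 0.025). None of the 80 ratio tests had an adjusted p under 0.05, while 10 had an unadjusted exact p under 0.05.

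The ratio of beta to alpha heavy chain asks whether the fetal motor gained ground. Myh7 reads were 6.94% and 3.03% of Myh6 reads at baseline and 11.9%, 3.45% and 8.11% after sham in PKM2fl/fl hearts, against 3.14% and 2.59% at baseline and 3.89%, 3.50% and 3.46% after sham in PKM2-/- hearts. After MI the ratio was 4.19%, 9.57% and 10.8% in PKM2fl/fl and 13.5%, 12.2% and 11.0% in PKM2-/- hearts. All 3 PKM2-/- MI libraries thus lay above the 5 PKM2-/- controls, while the PKM2fl/fl sham and MI ranges overlapped. The PKM2-/- MI libraries also lay above the PKM2fl/fl MI libraries, but narrowly, at 11.0% against 10.8% for the nearest. PKM2fl/fl sham replicate 1, at 11.9%, was above PKM2-/- MI replicate 3. Counting error was small beside the change from sham in PKM2-/- hearts. In PKM2-/- MI replicate 3, with the fewest reads of that group, Myh7 was 9.89% of the summed reads of both genes (95% Wilson interval 9.59 to 10.2%, counting error only). In PKM2fl/fl MI replicate 3 it was 9.74% (9.49 to 9.98%), so the intervals overlapped and the order of these libraries is within counting error.

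The ratio after MI was 3.37 times that after sham in PKM2-/- hearts (log2 difference 1.75, exact permutation p = 0.1, the smallest possible for 3 against 3) and 1.09 times in PKM2fl/fl hearts (0.13, exact p = 0.8). The PKM2fl/fl value turned to -0.38 without sham replicate 2, -0.045 without MI replicate 2 and -0.13 without MI replicate 3. Over both genotypes the log2 difference was 0.94 (exact stratified permutation p = 0.045, adjusted p = 0.31). The difference between the MI effects was 1.63 (exact stratified permutation p = 0.025, adjusted p = 0.25), so it did not pass the correction over the 80 ratio tests. Its permutations exchanged genotype labels within sham and within MI, so a genotype difference at either stage enters that p. After sham the log2 ratio of PKM2-/- hearts already differed by -0.94 from that of PKM2fl/fl hearts, so the p cannot single out the MI effects. After MI the PKM2-/- ratio was 1.61 times the PKM2fl/fl ratio (exact p = 0.1). Both genes had lower counts after MI in PKM2-/- hearts, with Myh6 at 15.6% and Myh7 at 52.6% of the sham level.

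**Figure D3:**
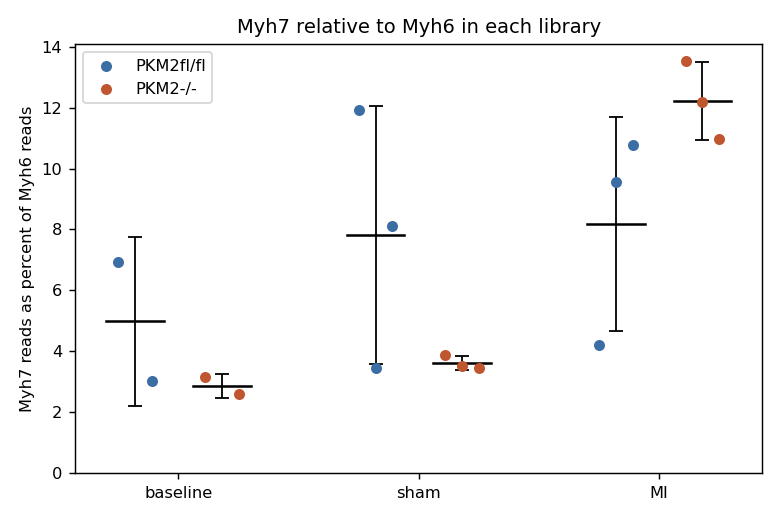
Myh7 reads as a percent of Myh6 reads (y axis from 0) in each of the 16 libraries at baseline, after sham and after MI; points are libraries and bars the mean ± SD. The PKM2-/- libraries go from 3.46 to 3.89% after sham to 11.0 to 13.5% after MI, whereas the PKM2fl/fl libraries cover 3.45 to 11.9% after sham and 4.19 to 10.8% after MI.

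None of the 6 genes passed the adjusted test between the genotypes. In the control groups the part of the rRNA-related share, which was higher in every PKM2-/- library than in any PKM2fl/fl library at the same stage, was not tested. At baseline and after sham 0 of 6 passed, where 0.00972% of all genes did in each comparison, and after MI 0 of 6 passed, where 0.967% did (limma). Myh7 had the lowest log2 fold change of PKM2-/- against PKM2fl/fl among the 6 in both control groups, -0.91 ± 0.55 at baseline and -0.99 ± 0.45 after sham (adjusted p = 1 and 0.485). The baseline value rested on which PKM2fl/fl library was kept, at -0.23 without replicate 1 and -1.59 without replicate 2. After sham the value moved with the PKM2fl/fl libraries as well, to -0.65 without replicate 1 and -1.56 without replicate 2. Myh7b had 1704 and 1319 normalized counts in the PKM2-/- against 2068 and 1897 in the PKM2fl/fl baseline libraries. No PKM2-/- library reached a PKM2fl/fl library for Myh7b at baseline or after sham (log2 fold changes -0.40 and -0.42). At baseline 3 of 6 genes (Myh6, Myh7 and Myh7b) were lower without overlap, as were 17.2% of all genes, and after sham 1 of 6, as were 8.28%. Relative to the cardiomyocyte markers, Myh7b was lower in PKM2-/- hearts over all 3 treatments by a log2 difference of -0.40 (exact stratified permutation p = 0.00333, adjusted p = 0.133).

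After MI the comparison of the genotypes turned on a single library. With all 3 PKM2fl/fl MI libraries the log2 fold changes of PKM2-/- against PKM2fl/fl ran from -0.93 for Myh7b (95% interval -1.76 to -0.11, adjusted p = 0.235) and -0.79 for Myh6 (-1.66 to 0.08, adjusted p = 0.34) to -0.10 for Myh7 (-1.06 to 0.86). Without PKM2fl/fl MI replicate 3, which had the lowest cardiomyocyte marker count of all 16 libraries, 5 of 6 genes were lower in PKM2-/- hearts, where 7.64% of all genes were: Myh7b by -1.63 (adjusted p = 6.2e-05), Myh6 by -1.31 (adjusted p = 0.00766), Mylk3 by -0.91, Myl2 by -0.89 and Myl3 by -0.65. Myh7 was then at -0.37 (adjusted p = 0.692). With all libraries, DESeq2 on the recovered reads called 1 of the 6, Myh6 (-0.94, adjusted p = 0.0274). There 1.47% of the 40116 genes with any read were lower, a wider set than the 20576 genes of the other shares. No gene of the 6 was free of overlap between the genotypes after MI, where 8.26% of all genes were lower without overlap. The cardiomyocyte marker counts of that library moved with these genes. With all libraries, the marker median in this comparison was -0.36. Relative to the markers, Myh7b was at -0.58 (exact permutation p = 0.3) and Myh6 at -0.43 (exact p = 0.1, the smallest possible). Mylk3 and Myl2 were at -0.12 each (exact p = 0.4 and 0.2). Myl3 was at 0.08 (exact p = 0.5) and Myh7 at 0.26 (exact p = 0.8). The part of cardiomyocyte number in the genotype difference was not tested.

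**Figure D4:**
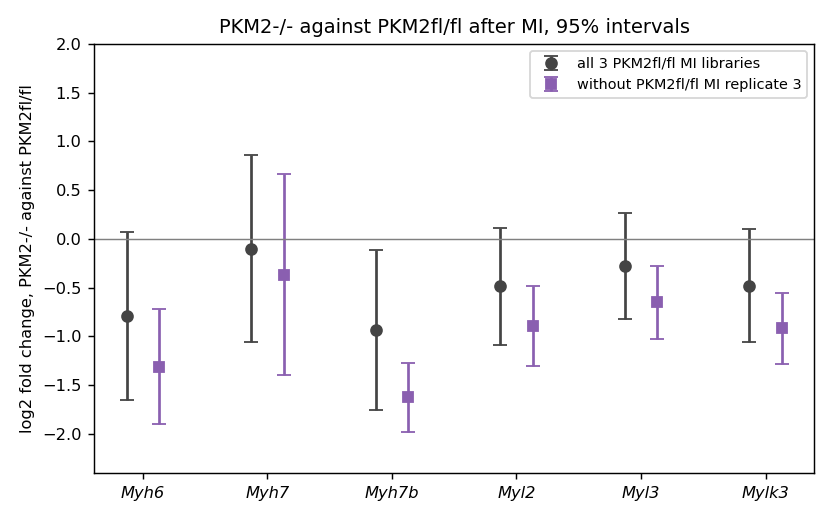
Log2 fold change of PKM2-/- against PKM2fl/fl hearts after MI (y axis, log2(value + 1) scale) for each gene, with 95% intervals from limma, with all 3 PKM2fl/fl MI libraries and without replicate 3. With all libraries 5 of the 6 intervals include 0, that of Myh7b reaching -0.11 at its upper end, and without that library only the interval of Myh7 does.

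The difference of the MI effect between the genotypes passed for 0 of 6 genes and for 0 of all genes tested by limma (1703 genes had an unadjusted p under 0.05), and DESeq2 called 52 genes, none of the 6 among them. It was 0.89 for Myh7 (95% interval -0.47 to 2.24), -0.74 for Myh6 (-1.97 to 0.48), -0.51 for Myh7b (-1.68 to 0.65), -0.48 for Mylk3 (-1.29 to 0.34), -0.12 for Myl2 and -0.04 for Myl3. Myh7 was thus the sole gene of the 6 with a positive difference. Without PKM2fl/fl MI replicate 3, Myh7b passed at -1.21 (adjusted p = 0.0146, where 1.97% of all genes were lower). For sham surgery, 0 of 6 genes passed against baseline in either genotype, where 0.19% and 5.14% of all genes did.

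The Myh7 locus also holds long non-coding RNAs on the opposite strand, and the library kit does not mark the strand, so reads of overlapping genes cannot be told apart where their exons coincide. Mhrt, an antisense RNA that restrains chromatin remodelling in the stressed heart, lies at chr14:54968787-54974349 and overlaps 15.3% of the Myh7 span. The annotated non-coding gene Gm31251 lies at chr14:54975264-55005006 and overlaps 80.9% of it. These 2, with Gm29015, had the profiles most like that of Myh7 over the 16 libraries (Pearson r of 0.97 for Gm31251 and Gm29015 and 0.94 for Mhrt, and 0.98, 0.94 and 0.92 for the deviations from group means). Gm31251 had 19875, 4122 and 13022 normalized counts in the PKM2fl/fl sham libraries and 5095, 5678 and 4553 in PKM2-/- sham libraries, which is the high and low pattern of Myh7 itself. Mhrt, with 8984, 4288 and 13726 in PKM2fl/fl sham libraries, fell by -2.33 (adjusted p = 0.000411) on the log2 scale after MI in PKM2fl/fl hearts. In PKM2-/- hearts Mhrt was lower after MI as well, at 1920, 1346 and 1190 against 3373, 5855 and 3477 after sham.

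Mir208b, inside Myh7 at chr14:54975700-54975776, followed the pattern of Myh7 only in part, being high in PKM2fl/fl sham replicate 3 but not in sham replicate 1. Its normalized counts were 44.1, 41.1 and 71.1 after sham in PKM2fl/fl and 53.1, 43.1 and 51.8 in PKM2-/- hearts, and fell to 23.2, 17.1 and 5.49 and to 5.67, 3.18 and 5.77 after MI. The log2 fold changes were -1.86 ± 0.41 (adjusted p = 0.00152) in PKM2fl/fl and -3.13 ± 0.41 (adjusted p = 1.3e-05) in PKM2-/- hearts. These counts are reads on the hairpin interval in libraries of long RNA, not levels of the mature microRNA, and MI libraries held as few as 4 reads there. Mir208a and Mir499, the hairpins in Myh6 and Myh7b, stayed under the filter on low values.

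**Figure D5:**
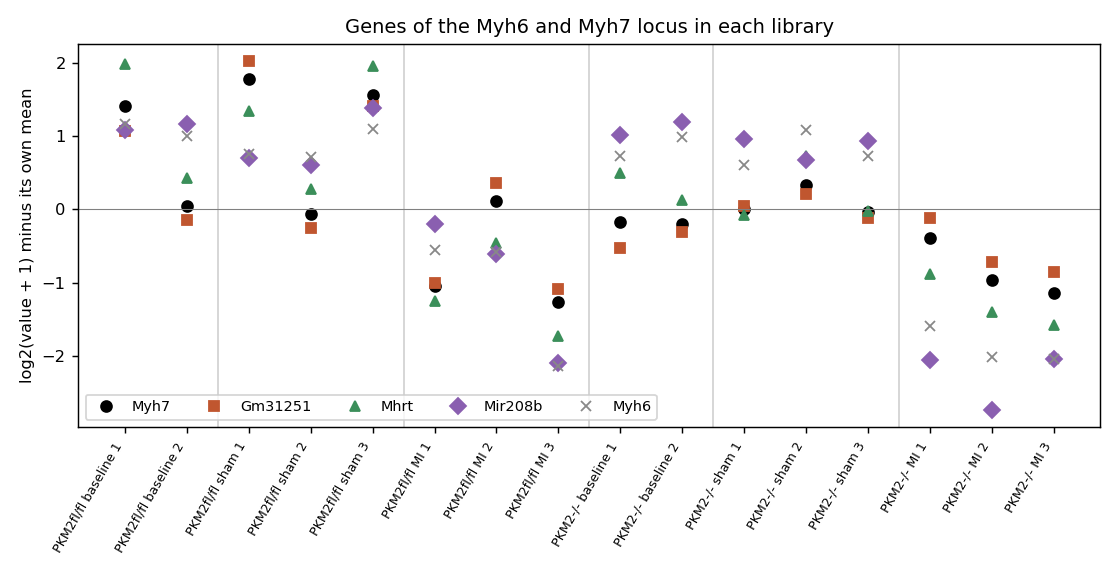
Log2(value + 1) of Myh7, Gm31251, Mhrt, Mir208b and Myh6 in each of the 16 libraries, each less its own mean (y axis); vertical lines part the 6 groups. Myh7, Gm31251 and Mhrt are highest in PKM2fl/fl baseline replicate 1 and in sham replicates 1 and 3, whereas Mir208b and Myh6 follow that order only in part among the controls and are lowest in the MI libraries.

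The other 5 genes varied with one another (r of 0.97 to 0.99 between any pair over the 16 libraries, against 0.72 to 0.75 with Myh7). All these points share the difference between MI and control libraries, so the values are a description. The nearest profiles were Lamb2, Prob1 and Usp13 for Myh6, Coro6, Platr32 and Doc2g for Myh7b, Mb, Itgad and Cox6a2 for Myl2, Idh3b, Ndufa9 and Gatd3a for Myl3, and Lmo7, Acad12 and Ivd for Mylk3, all with r of 0.99 or more. Mb (myoglobin) and Cox6a2 are themselves on the cardiomyocyte marker list.

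Most genes whose products work on or beside the thick filament fell too. Of 15 listed partners and quality control factors, 14 were tested. After MI 11 fell in PKM2fl/fl and 12 in PKM2-/- hearts, where 25.3% and 28.1% of all genes fell. The list median was -1.42 and -1.76. Of the 16 cardiomyocyte markers 15 and 16 fell, with medians of -1.75 and -1.92, and their part in these falls was not tested. Trim63, which encodes the ubiquitin ligase MuRF1 that degrades myosin, fell by -1.59 and -1.72, Myom2, an M-band crosslinker, by -1.93 and -1.98, and Smyd1, a methyltransferase needed for myosin assembly, by -1.28 and -1.46. Hsp90aa1, the general form of the chaperone that folds myosin heads, was the 1 that rose in both (0.72 and 0.44) and was picked out with its values known. Among 15 tested genes of light chain phosphorylation, 3 rose and 4 fell in PKM2fl/fl and 3 rose and 5 fell in PKM2-/- hearts, shares near those of all genes (24.8% rose and 25.3% fell in PKM2fl/fl, 28.7% and 28.1% in PKM2-/- hearts). Mylk4, a relative of Mylk3, fell by -2.64 and -3.62, and Ppp1r12b, a subunit of the phosphatase that opposes the kinase, by -1.03 and -1.54.

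Of 10 other heavy chains 4 were tested: the non-muscle chains Myh9 and Myh10 rose (1.74 and 0.88 in PKM2fl/fl, 1.81 and 0.86 in PKM2-/- hearts), while Myh14 fell (-1.78 and -2.31) and the smooth muscle chain Myh11 fell in PKM2-/- hearts (-1.34). Of 9 tested light chains outside the 6, 3 rose and 0 fell in PKM2fl/fl and 2 rose and 1 fell in PKM2-/- hearts, where 24.8% and 28.7% of all genes rose. Myl6, the light chain of non-muscle myosin, rose in both (0.95 and 1.28), and the 1 that fell was Myl1 (-0.83), a fast skeletal muscle chain picked out with its value known. The summed fibroblast markers went from 22051 to 40094 after sham to 132370 to 142759 after MI in PKM2fl/fl hearts and from 24393 to 39723 to 117062 to 156575 in PKM2-/- hearts, and their part in these rises was not tested. The atrial chain Myl7 was at -1.72 and -1.62 and did not pass in either genotype.

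Of 24 tested regulators of heavy chain transcription, 15 fell and 3 rose in PKM2fl/fl hearts and 17 fell and 3 rose in PKM2-/- hearts after MI. Over all genes 25.3% and 28.1% fell and 24.8% and 28.7% rose. The list median was -0.51 and -0.67, against -1.75 and -1.92 for the cardiomyocyte markers, whose part in these falls was not tested. Hopx, a homeodomain cofactor, fell by -1.90 and -1.98, the transcription factor Tbx5 by -1.62 and -2.13, Sox6, a repressor of slow muscle genes, by -1.41 and -2.05, and Thrb, the thyroid hormone receptor beta, by -1.47 and -2.25. Thyroid hormone is the classical inducer of the alpha and repressor of the beta chain. Between the genotypes after MI, 2 of the 24 regulators passed, where 0.967% of all genes did. These were Thrb and Sox6, lower in PKM2-/- than in PKM2fl/fl hearts by -1.11 (adjusted p = 0.0239) and -0.90 (adjusted p = 0.0319), with Thrb counts of 563 to 746 against 962 to 1846 (n = 3 each). The median of the cardiomyocyte markers was -0.36 in that comparison. Its part in these values, and their relation to the Myh7 to Myh6 ratio, was not tested. The groups did not overlap for Thrb, as for 8.26% of all genes, which were lower without overlap. Of the 4 stress genes that often accompany Myh7, the natriuretic peptide genes Nppa and Nppb rose in both genotypes (Nppa by 1.28 and 1.33, Nppb by 1.23 and 1.72), whereas Ankrd1 and Acta1 did not pass in either.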

How the data were processed

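The authors sequenced rRNA-depleted total RNA, prepared with a kit that does not mark strand, in paired-end runs, and used HISAT2 on the mm10 genome, featureCounts for gene-level read totals, then DESeq2 (versions and strand setting not given in the sources used here). The deposited signal is the normalized count, reads divided by the size factor of the library. Whole reads were recovered for 100% of values (tolerance 0.01 reads), 20623769 to 71855101 per library. Genes whose mean reached 10 (20576 of 55492) were tested with limma 3.58.1 (R 4.3.3, trend) on log2(value + 1), in 1 fit of 6 groups, with Benjamini-Hochberg adjustment over all genes. Fold changes are on that scale and understate changes of low genes. Ratios were compared by exact two-sided permutation tests, adjusted over 80 tests. The pseudocount, filter, scaling, tool (edgeR 4.0.16, DESeq2 1.42.0), samples fitted, replicate block and each library were varied. On simulated data for MI against sham in PKM2fl/fl hearts (20576 genes), limma recovered 62% of 2-fold and 88% of 4-fold changes. The simulation changed 100 genes by each fold and no others, whereas 10299 genes passed in the real comparison. These rates therefore do not measure the power of that comparison. The genes and lists were chosen with earlier results of these data known. Named genes were the 6 members, their 3 most correlated genes, up to 4 genes per list with the smallest p for MI against sham in PKM2fl/fl hearts, and Pkm. The authors also deposited log2 fold changes, a Wald score and p-values from their DESeq2 comparison of the baseline groups, which were not used. Intervals on shares cover counting error only.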

Additional observations from a re-analysis of the deposited data

How the results depend on the processing

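The falls after MI kept their direction and call for all members called under every alternative, and Myh7 in PKM2-/- hearts changed call only when the 2 groups were fitted alone. The comparison of the genotypes after MI called 0 of 6 genes, and 1 by DESeq2. Leaving out a library gave 0 to 5 there and 0 to 1 for the difference of the MI effects, the highest in both without PKM2fl/fl MI replicate 3. Scaling by total reads shifted the median of all genes by 0.36 after MI and 0.67 for the difference of effects, and turned the sign of Myh7 (0.27) and Myl3 (0.085) after MI, and of Myh7b (0.18), Myl2 (0.57), Myl3 (0.65) and Mylk3 (0.21) for the difference of effects. Relative to that median, Myh7 was at -0.095 after MI and Myl3 at -0.026 for the difference. Total reads without rRNA-related loci turned Myh7 after MI (0.060) and Myl2 (0.090) and Myl3 (0.17) for the difference. With a library left out, Myh7 after MI ran from -0.37 to 0.32, the difference of effects from -0.53 to 0.13 for Myl2 and -0.41 to 0.21 for Myl3, and the Myh7 to Myh6 ratio for MI against sham in PKM2fl/fl from -0.38 to 0.55, and Myh7 relative to the cardiomyocyte markers there from -0.73 to 0.20. The cause was not tested.

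Over all genes, the count called between the genotypes after MI was 199, against 1033 by DESeq2, 121 with total reads, 75 with the replicate block and 6 with the groups fitted alone. The DESeq2 counts are over the 40116 genes with any read. For the difference of effects it was 0, against 52 by DESeq2 and 54 with total reads. At baseline the count was 2, against 44 with total reads and 17 by DESeq2, and after sham 2, against 113 and 273. Same-numbered libraries did not deviate together (36 pairs, correlations -0.20 to 0.13, 1 above 0.1). Deviations from means of 2 or 3 libraries cannot show whether same-numbered libraries were handled together. The replicate block left every count of called members as it was, at 6 of 6 for MI in PKM2fl/fl, 5 of 6 in PKM2-/- and 0 of 6 elsewhere.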
